A study of Mus musculus with 6 samples.

Results

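The unfolded protein response of the endoplasmic reticulum (ER) was followed through 9 transcripts, Xbp1, Atf6, Herpud1, Edem1, Sdf2l1, Pdia4, Calr, Creld2 and Hyou1, which are 9 of the 27962 gene names on the array. They were taken by name, as every non-control probe that the scanner files assign to one of these genes, and 14 of the 41174 probes belong to them. RNA came from primary mouse embryonic fibroblasts, a mixed culture grown out of embryos, and was hybridised to 6 one-colour Agilent arrays. The 3 groups of 2 arrays each were untreated cells (0 h), cells after 2 h in 1 mM hydrogen peroxide (H2O2) and cells after 4 h in 1 mM H2O2. Strain, passage and the age of the embryos are not given in the sources used here, and the untreated cells belong to 0 h alone, so exposure and time in culture cannot be told apart. According to the series text each time point was run as 2 separate experiments, without saying whether embryos, cultures or days differed. The p-values measure the spread between such experiments together with any difference between slides, since same-numbered arrays shared a slide.

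Proteins that enter the ER fold there with the help of chaperones, disulfide isomerases and calcium-binding lectins. When unfolded chains build up, 3 sensors in the ER membrane respond: IRE1 (gene Ern1) splices the mRNA of the transcription factor Xbp1, ATF6 is carried to the Golgi and cut to release a transcription factor, and PERK (gene Eif2ak3) phosphorylates the initiation factor eIF2, which slows translation and lets ATF4 be made. The factors released by the first pair of sensors raise the genes for chaperones and for ER-associated degradation, the route by which misfolded proteins are returned to the cytosol and destroyed. Fibroblasts secrete collagen and other matrix proteins and so carry a large load of ER cargo.

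The cell type was checked by marker transcripts. All 10 fibroblast markers were well above background on all 6 arrays, and their summed level, in multiples of each array's 75th-percentile signal, was 849 to 889 in untreated cells, 1050 to 1060 at 2 h and 985 to 1030 at 4 h. Of other cells that such cultures could hold, 6 of 6 leukocyte, 5 of 6 muscle, 5 of 6 neural, 3 of 8 endothelial and 3 of 6 epithelial markers were well above background on all arrays, whereas Cdh5 and Tie1 (endothelial), Epcam and Cldn4 (epithelial) and Myod1 (muscle) were above it on none. The summed level of the endothelial list was 0.473 to 0.54, then 0.987 to 1.1 and 0.959 to 0.981, that of the epithelial list 2.95 to 3.27, then 3.76 to 4.15 and 3.63 to 4.12, and that of the leukocyte list 18.2 to 19.6, then 21.5 to 21.7 and 20.6 to 21.9. It was 27.5 to 36 (untreated), 31.7 to 41.1 (2 h) and 29.9 to 34 (4 h) for the muscle list, and 5.31 to 5.32, 6.04 to 6.3 and 5.14 to 5.49 for the neural list. Sums follow the brightest markers, and they were taken on the 75th-percentile scale alone. Single markers went both ways. At 2 h the log2 changes of the 10 fibroblast markers ran from -1.08 to 0.39, and 4 rose and 1 fell (22.6% and 14.9% of all genes). Those of the tested endothelial markers ran from 0.05 to 3.77, and of the neural ones from -1.24 to 0.40. The part of other cells in the changes below was not tested, and in bulk RNA fewer cells of a type and less RNA per cell cannot be told apart. Hmox1, the heme oxygenase gene induced by oxidants, rose 5.60-fold at 2 h and 5.30-fold at 4 h (limma, adjusted p = 0.000239 and 0.000305).

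The promoters are described first, although the expression fit was run before they were searched. The ER stress response element, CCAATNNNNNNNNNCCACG, and its second form, ATTGGNCCACG, are the letters through which ATF6 and XBP1 are known to act together with the CCAAT-binding factor NF-Y. Both strands were searched for these exact letters in RefSeq promoter windows of 300 bases (250 before and 50 after the start of the transcript, build GRCm38.p6), where 7 of the 9 genes had an entry and Atf6 and Hyou1 did not. The first element stood in 39 of 32851 windows (0.119%), among them those of Calr and Creld2, and the second in 12 windows (0.0365%), among them that of Herpud1. These stretches are shown because they carry a full element; capitals mark its outer blocks, CCAAT and CCACG or their complements ATTGG and CGTGG, and every stretch lies before the start. They are Herpud1 at chr8:94386342-94386422 (plus strand), Calr at chr8:84847040-84847128 (minus strand) and Creld2 at chr15:88819485-88819573 (plus strand), written 5′ to 3′ on the gene's strand.
Herpud1: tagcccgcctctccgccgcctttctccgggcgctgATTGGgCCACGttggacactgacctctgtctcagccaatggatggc
Calr: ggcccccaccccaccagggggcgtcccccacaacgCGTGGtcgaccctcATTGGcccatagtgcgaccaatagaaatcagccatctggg
Creld2: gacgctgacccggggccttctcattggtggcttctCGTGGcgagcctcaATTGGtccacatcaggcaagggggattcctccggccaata
The element begins 52 bases before the start in Herpud1, 162 in Calr and 126 in Creld2, and it runs on the opposite strand in Calr and Creld2. The windows of Edem1, Sdf2l1 and Pdia4 hold CCACG and CCAAT apart from each other, letters that stand in 32.8% and 37.4% of all windows, and the Xbp1 window holds neither. Such matches describe the letters of these windows and nothing more.

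Levels below are log2 of the processed signal over the array's own 75th percentile, so that 0 is a signal equal to that percentile, and levels of different probes are not compared. Changes are differences of group means, with a standard error (SE) that rests on 2 arrays in each group (n = 2), tested with limma in 1 fit of all 6 arrays, and a gene rose or fell where the p adjusted over 25885 probes was under 0.05. The brightest probe stands for a gene in all counts, and 13 of the 14 probes passed the filter on dim signals, with all 9 genes among them.

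The 9 transcripts did not move together. At 2 h Atf6 and Calr rose, Herpud1 fell and 6 did not pass, and at 4 h Pdia4 rose, Herpud1 and Sdf2l1 fell and 6 did not pass. Over the whole array 22.6% of 17340 genes rose and 14.9% fell at 2 h, and 23.9% rose and 17.9% fell at 4 h, so these counts lie near the background. The median change was 0.19 for the 9 genes and 0.12 for all genes at 2 h, and 0.05 against 0.07 at 4 h. From 2 h to 4 h Herpud1 rose, Sdf2l1 fell and 7 did not pass, where 13.1% of all genes rose and 15.7% fell. Both treated groups are set against the same untreated arrays, so their values are given side by side and not as independent repeats.

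**Figure D1:**
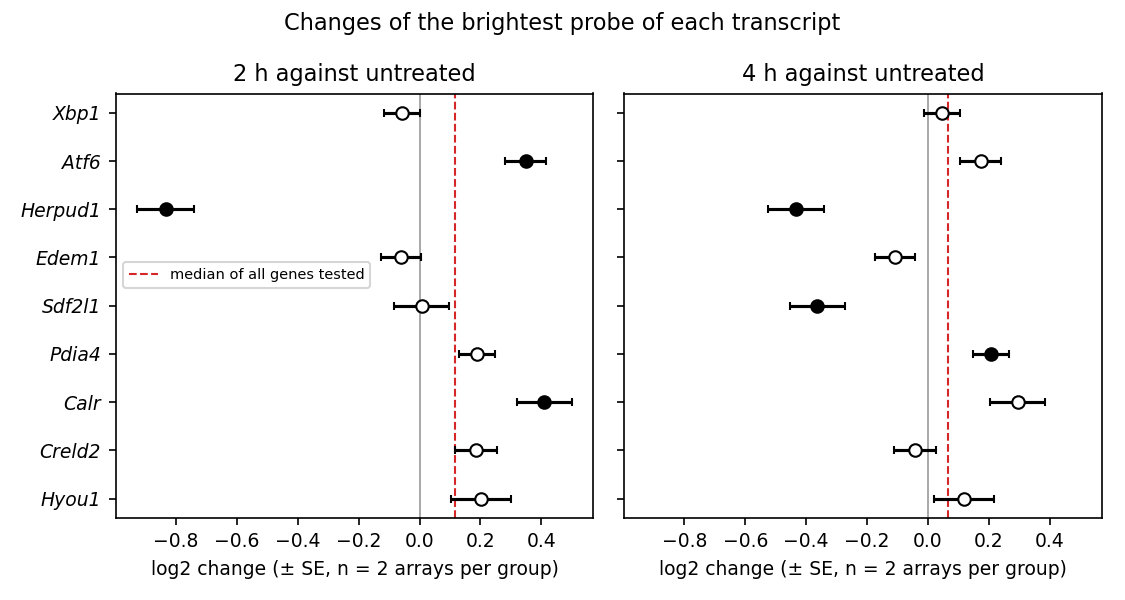
Log2 change (x axis, ± SE, n = 2 arrays per group) of the brightest probe of each of the 9 transcripts at 2 h and at 4 h against untreated cells. Filled points passed limma's test at an adjusted p under 0.05; the dashed line is the median of all genes (0.12 and 0.07). Herpud1 lies lowest at both times, and most of the others lie close to the line.

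Same-numbered arrays lay on the same slide, and a fit with the slide as a block, which removes what the arrays of a slide share, called 5 rises and 1 fall at 2 h and 3 rises and 2 falls at 4 h. In that fit 31.8% of all genes rose and 18.4% fell at 2 h, and 30.0% rose and 22.1% fell at 4 h. Array position follows time on both slides, so position and time cannot be told apart. The choice of scaling sets the zero of every change. At 2 h the median of all genes was 0.12 after the 75th percentile, -0.22 with no scaling and -0.34 when arrays were set level on 7 spike-in control probes. The share of rises among called genes fell with it, from 60.3% to 21.7% and 13.9%, and among the 9 transcripts none rose and 6 fell at 2 h after spike-in scaling, and none rose and 5 fell at 4 h. Under the same scaling 8.29% of all genes rose and 51.5% fell at 2 h, and 10.2% rose and 37.0% fell at 4 h. At 2 h, changes relative to the median gene varied less over the scalings for each of the 9 transcripts, and they are given below. The 75th percentile, median centring, no scaling and spike-in scaling differ only by a shift of each whole array. Such a shift nearly cancels against the median gene, so these scalings agree by construction. Only the quantile and normexp settings could move the relative values.

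**Figure D2:**
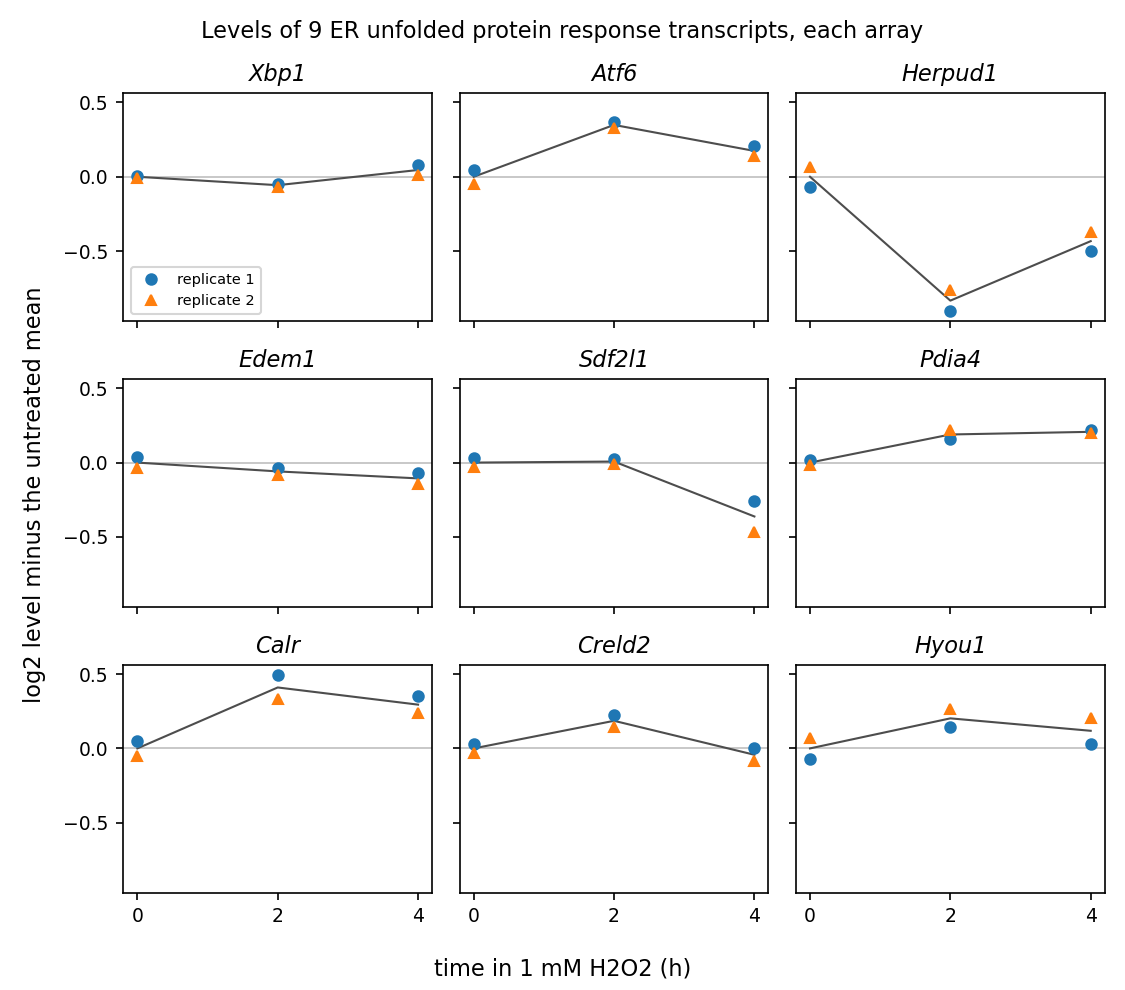
Log2 level on each array minus the untreated mean (y axis) against time in 1 mM H2O2 (x axis, hours) for the brightest probe of each transcript; circles are replicate 1, triangles replicate 2, and lines join group means. Herpud1 drops and partly returns, Sdf2l1 drops at 4 h alone, and Xbp1 stays within 0.10 of its untreated mean.

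Among the transcription factors, Xbp1 did not pass in any comparison on the 75th-percentile scale. Its level was 2.05 and 2.03 on the untreated arrays (replicates 1 and 2), 1.99 and 1.97 at 2 h, and 2.12 and 2.05 at 4 h. Both 2 h arrays lay below and both 4 h arrays above the untreated ones, by less than 0.10 in each case. The change was -0.06 ± 0.06 at 2 h (95% interval -0.21 to 0.10, adjusted p = 0.490) and 0.05 ± 0.06 at 4 h (-0.11 to 0.20, adjusted p = 0.577), in limma's test. After spike-in scaling Xbp1 fell at 2 h by 0.51 and at 4 h by 0.25 and rose between the times by 0.26 (limma, adjusted p = 0.00361, 0.0360 and 0.0481), and with no scaling it fell at 2 h by 0.39 (adjusted p = 0.0173). Relative to the median gene it was -0.17 at 2 h and between -0.17 and -0.12 over the 7 scalings. XBP1 becomes a strong activator when IRE1 removes a short intron from its mRNA, and whether the probe tells the forms apart was not tested, since probe sequences were not used here.

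Atf6, which encodes the ER membrane precursor of a transcription factor, was higher in treated cells on both of its probes. The brightest probe had 1.07 and 0.97 in untreated cells, 1.39 and 1.35 at 2 h, and 1.23 and 1.16 at 4 h, with no overlap between treated and untreated arrays. It rose by 0.35 ± 0.07 at 2 h (limma, adjusted p = 0.0191, and 0.104 at most when 1 untreated or 2 h array was left out) and had 0.17 ± 0.07 at 4 h (adjusted p = 0.104, and 0.0409 in the fit blocked by slide). The 2 h value turned to -0.11 after spike-in scaling and was 0.18 to 0.30 above the median gene over all 7 scalings. The 2 h call held in 12 of the 21 settings. With no scaling this probe had 0.01 at 2 h and -0.09 at 4 h, and after spike-in scaling -0.12 at 4 h. The other probe had -0.49 and -0.43, then -0.07 and -0.02, then -0.01 and 0.05, and rose at both times, by 0.41 ± 0.06 at 2 h and 0.48 ± 0.06 at 4 h (adjusted p = 0.00899 and 0.00544), with -0.04 at 2 h after spike-in scaling. Between 2 h and 4 h neither probe passed (-0.18 and 0.07, limma adjusted p = 0.126 and 0.464), and the difference between the probes was not tested.

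Herpud1 moved most. It encodes a membrane protein that assembles the ER degradation machinery around the ubiquitin ligase HRD1, and it is one of the classic targets of the unfolded protein response. Its level was 3.21 and 3.34 in untreated cells, 2.37 and 2.51 after 2 h, and 2.78 and 2.91 after 4 h. The groups did not overlap, and replicate 2 was the higher array in each of them. The processed signals before any scaling were 7626 and 8963, then 3495 and 3859, then 4623 and 5656. It fell 1.78-fold at 2 h (log2 change -0.83 ± 0.09, limma adjusted p = 0.00409), by 0.83 on each slide taken alone. At 4 h it was still lower, by 1.35-fold (-0.43 ± 0.09, adjusted p = 0.0226), and between 2 h and 4 h it rose by 0.40 ± 0.09 (adjusted p = 0.0371).

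The fall of Herpud1 at 2 h passed under all 21 alternative settings, with changes from -1.29 to -0.76, and lay 0.95 to 0.98 below the median gene under the 7 scalings. Of the 17340 genes tested, 1005 (5.80%) had a 2 h change as low or lower. At 4 h the call held in 17 of the 21 settings and was lost without either untreated array or the first 4 h array (limma, adjusted p up to 0.102). The rise from 2 h to 4 h held in 11 settings and in none of the 6 that leave out an array. The promoter of Herpud1 carries the second form of the ER stress element, shown above, and the gene fell at both times.

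Edem1, a mannosidase-like protein that hands misfolded glycoproteins to degradation, gave probes that disagree. Its brightest probe had 2.35 and 2.28 in untreated cells, 2.28 and 2.23 at 2 h, and 2.24 and 2.17 at 4 h. The 2 h arrays overlapped the untreated ones, the 4 h arrays lay just below them, and neither change passed (-0.06 ± 0.07 and -0.11 ± 0.07, limma adjusted p = 0.514 and 0.256). The same probe fell at both times after spike-in scaling (-0.51 and -0.40, adjusted p = 0.00297 and 0.00733) and with no scaling (-0.40 and -0.37, adjusted p = 0.0148 and 0.0186), and lay 0.18 and 0.17 below the median gene. A probe placed 4658 bases upstream in the genome had 1.86 and 1.81, then 2.08 and 2.09, then 2.17 and 2.15, and rose at both times (0.25 ± 0.06 and 0.33 ± 0.06, adjusted p = 0.0285 and 0.0120), with -0.21 at 2 h after spike-in scaling. Its 2 h call was lost whichever array was left out. A dim probe 2028 bases upstream had 0.21 ± 0.12 at 2 h and 0.08 ± 0.12 at 4 h and did not pass. Which of these represents the Edem1 protein-coding transcript was not tested.

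**Figure D3:**
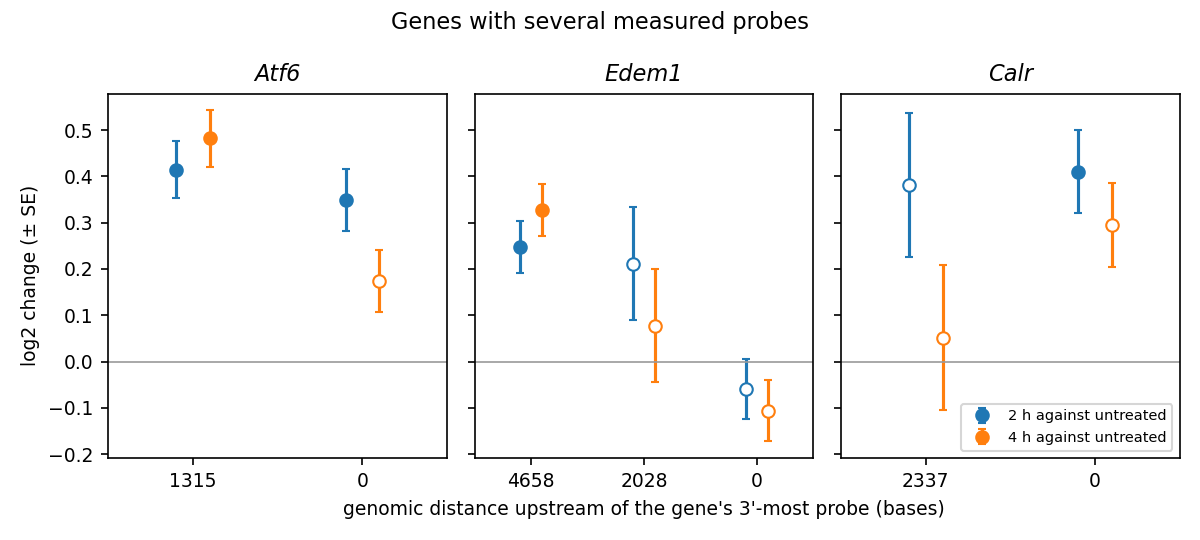
Log2 change (y axis, ± SE, n = 2 arrays per group) at 2 h and 4 h for each tested probe of Atf6, Edem1 and Calr, ordered by genomic distance in bases upstream of the gene's 3′-most probe (x axis). Filled points passed limma's test; for Edem1 the probe 4658 bases upstream rose, while the 3′-most probe had -0.06 and -0.11.

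Sdf2l1, a partner of J-domain co-chaperones in the ER lumen, did not pass at 2 h and fell at 4 h. It had 0.99 and 0.93 in untreated cells, 0.99 and 0.95 at 2 h, and 0.71 and 0.49 at 4 h. The 4 h arrays thus lay below the other 4 and differed most from each other. The change at 2 h was 0.01 ± 0.09 (limma, 95% interval -0.23 to 0.24), and -0.45 after spike-in scaling. Relative to the median gene the 2 h value ran from -0.11 to -0.01 over the 7 scalings. At 4 h Sdf2l1 fell by 0.36 ± 0.09 (adjusted p = 0.0338), a call that held in 13 of the 21 settings, and from 2 h to 4 h by 0.37 ± 0.09 (adjusted p = 0.0424), which held in 10. Leaving out 1 array at a time, the 4 h call held without the first 4 h array and in no other case (adjusted p up to 0.139), and its value relative to the median gene ran from -0.55 to -0.32 over the scalings.

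Pdia4, a disulfide isomerase that makes and reshuffles disulfide bonds, rose slightly at 4 h. It had 2.15 and 2.12 in untreated cells, 2.29 and 2.35 at 2 h, and 2.35 and 2.33 at 4 h. All 4 treated arrays lay above both untreated ones. The change was 0.19 ± 0.06 at 2 h (limma, adjusted p = 0.0645, and 0.0477 in the fit blocked by slide), and at 4 h Pdia4 rose by 0.21 ± 0.06 (adjusted p = 0.0465), a call that held in 7 of the 21 settings and in none of the 6 that leave out an array. After spike-in scaling the values were -0.27 and -0.09, and relative to the median gene they were 0.07 at 2 h and 0.14 at 4 h, with a range of -0.05 to 0.20 at 4 h over the 7 scalings.

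Calr encodes calreticulin, the calcium-storing lectin chaperone of glycoproteins. Its brightest probe had 4.96 and 4.86 in untreated cells, 5.40 and 5.24 at 2 h, and 5.26 and 5.14 at 4 h, with every treated array above both untreated ones. It rose by 0.41 ± 0.09 at 2 h (limma, adjusted p = 0.0264), with -0.04 after spike-in scaling, a call that held in 9 of the 21 settings and was lost without any untreated or 2 h array (adjusted p up to 0.124). Relative to the median gene the 2 h value of this probe ran from 0.11 to 0.29 over the 7 scalings, and the rise passed in 1 of them. At 4 h this probe had 0.29 ± 0.09 (limma, adjusted p = 0.0572, and 0.0143 in the fit blocked by slide). A second, dimmer probe had 2.60 and 2.53, then 3.17 and 2.73, then 2.59 and 2.65, and did not pass at 2 h (0.38 ± 0.16, adjusted p = 0.122) or at 4 h (0.05 ± 0.16, adjusted p = 0.815). Its 2 h arrays lay apart from each other by more than the change itself.

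Creld2, a secreted ER resident with EGF-like domains that interacts with disulfide isomerases, had 4.47 and 4.42 in untreated cells, 4.67 and 4.59 at 2 h, and 4.44 and 4.36 at 4 h. Both 2 h arrays were above all others. The change at 2 h was 0.19 ± 0.07 (limma, adjusted p = 0.0985, and 0.0347 in the fit blocked by slide), -0.27 after spike-in scaling. At 4 h it was -0.04 ± 0.07 (adjusted p = 0.653), and from 2 h to 4 h -0.23 ± 0.07 (adjusted p = 0.0706, 0.0280 with the block). The 4 h fall passed with quantile normalization (-0.22, limma adjusted p = 0.0402) and normexp with quantile (-0.21, adjusted p = 0.0232). It also passed with no scaling (-0.30, adjusted p = 0.0342) and spike-in scaling (-0.34, adjusted p = 0.0135). Relative to the median gene the 4 h value ran from -0.35 to -0.11 over the 7 scalings. Creld2 and Calr share the first ER stress element shown above, at different distances from the start.

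Hyou1, a large chaperone of the HSP70 family that also serves as exchange factor for BiP, had 1.70 and 1.84 in untreated cells, 1.91 and 2.03 at 2 h, and 1.80 and 1.97 at 4 h. Replicate 2 was higher in every group, and the 4 h arrays overlapped the untreated ones. The change was 0.20 ± 0.10 at 2 h (limma, adjusted p = 0.176, and 0.0312 in the fit blocked by slide) and 0.12 ± 0.10 at 4 h (adjusted p = 0.389), with -0.25 and -0.17 after spike-in scaling. Relative to the median gene the 2 h value ran from 0.03 to 0.12 over the 7 scalings. The other probe of Hyou1 was well above background on 1 of the 6 arrays and was not tested.

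Set side by side without a test, the 2 arrays of 2 h were both above the untreated ones for 5 of the 9 transcripts and both below for 2, where 47.9% and 27.4% of all genes were so placed. At 4 h the counts were 4 and 3, against 41.7% and 31.4% of all genes, and between 2 h and 4 h 2 were higher and 3 lower, against 25.9% and 41.1%. Relative to the median gene at 2 h, over the 7 scalings, Herpud1, Xbp1, Edem1 and Sdf2l1 were below 0 in each, and Atf6, Calr, Pdia4 and Hyou1 above 0 in each. Creld2 ran from -0.06 to 0.07. Scalings that only shift a whole array agree here by construction.

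**Figure D4:**
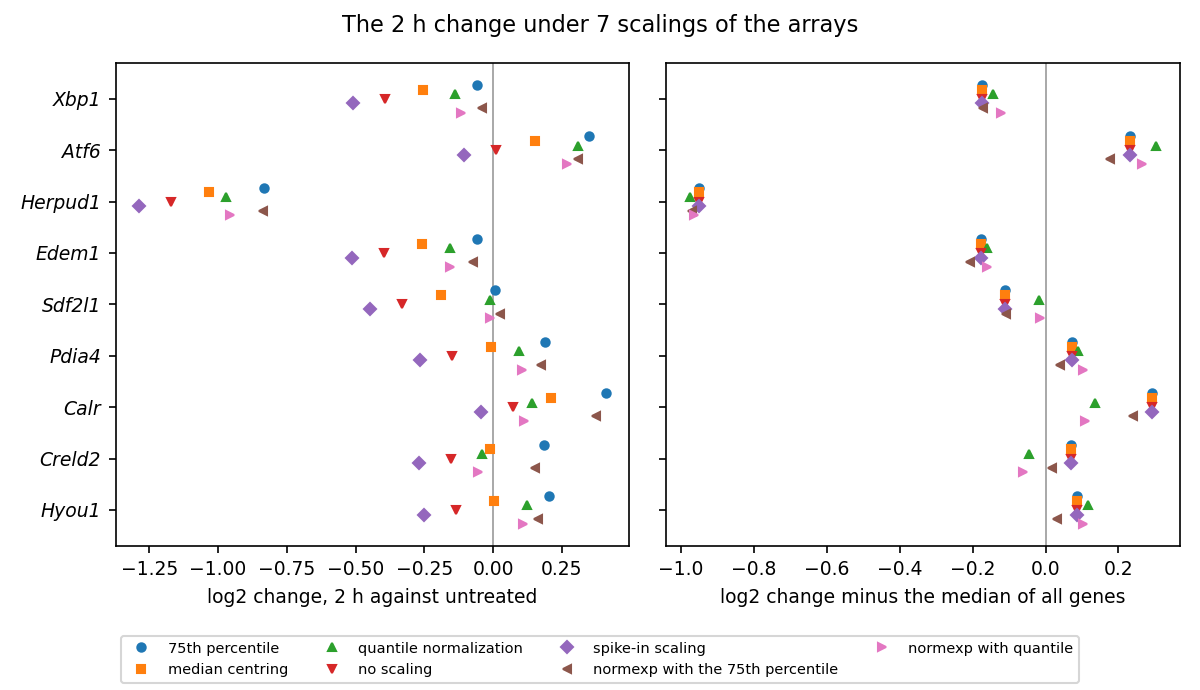
Log2 change at 2 h of the brightest probe of each transcript under 7 scalings of the arrays, as such (left x axis) and minus the median of all genes under the same scaling (right x axis). On the left Atf6, Pdia4, Calr, Creld2 and Hyou1 lie on both sides of 0. On the right Herpud1 lies between -0.98 and -0.95 throughout, where scalings that only shift a whole array coincide by construction.

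Other genes of the pathway were taken from lists by role, and each list is described by its counts and its median beside those of all genes. Among 14 genes of the sensors and their processing, 4 rose and 1 fell at 2 h (22.6% and 14.9% of all genes) and 5 rose and 2 fell at 4 h (23.9% and 17.9%), with medians of 0.22 and 0.16 (0.12 and 0.07 for all genes). After spike-in scaling none rose and 7 fell at 2 h (8.29% and 51.5% of all genes) and 1 rose and 4 fell at 4 h (10.2% and 37.0%). The PERK gene Eif2ak3 had 0.55 and 0.44 in untreated cells, 0.58 and 0.53 at 2 h, and 1.01 and 1.00 at 4 h. It thus rose at 4 h alone, by 0.51 ± 0.07 (limma, adjusted p = 0.00574; 0.22 after spike-in scaling), and the difference between 2 h and 4 h passed as well (0.45 ± 0.07, adjusted p = 0.0113). Nfya, the regulatory subunit of NF-Y, fell at 2 h by 0.29 ± 0.08 (limma, adjusted p = 0.0398, where another probe had -0.01). It rose at 4 h by 0.52 ± 0.08 (adjusted p = 0.00776, the other probe 0.85). After spike-in scaling the brightest Nfya probe had -0.75 at 2 h and 0.23 at 4 h. Yy1, a zinc finger factor that works with ATF6, rose by 0.45 ± 0.09 and 0.61 ± 0.09 (adjusted p = 0.0195 and 0.00780), and by 0.94 and 0.90 at 2 h on 2 further probes. The 2 h change of its brightest probe was 0.12 with no scaling and close to 0 (2.49e-05) after spike-in scaling, where the 4 h change was 0.32. Ern1, chosen after its values were seen because it encodes IRE1, was dim, with -2.35 and -2.81, then -1.31 and -2.18, then -2.35 and -2.48, and did not pass (0.83 ± 0.33 at 2 h, adjusted p = 0.113).

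Among 31 ER chaperones and folding enzymes, 14 rose and 2 fell at 2 h (22.6% and 14.9% of all genes), and 8 rose and 1 fell at 4 h (23.9% and 17.9%), with medians of 0.22 and 0.21 (0.12 and 0.07 for all genes). With the slide as a block 15 rose at 4 h, where 30.0% of all genes did. After spike-in scaling none rose and 11 fell at 2 h (8.29% and 51.5% of all genes), and 1 rose and 3 fell at 4 h (10.2% and 37.0%). The chaperone BiP, gene Hspa5, chosen after its values were seen because it binds all 3 sensors, had 6.34 and 6.33 in untreated cells, 6.70 and 6.70 at 2 h, and 6.65 and 6.66 at 4 h. It rose by 0.37 ± 0.05 and 0.32 ± 0.05 (limma, adjusted p = 0.00869 and 0.0117), with -0.08 at 2 h after spike-in scaling. Dnajb9, a J-domain partner of BiP, rose by 0.44 ± 0.06 and 0.61 ± 0.06 (adjusted p = 0.00689 and 0.00281; -0.01 at 2 h after spike-in scaling). Ppib, the ER cyclophilin that helps collagen fold, rose by 0.40 ± 0.08 and 0.43 ± 0.08 (adjusted p = 0.0211 and 0.0158; -0.05 at 2 h after spike-in scaling).

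The largest change on that list was a fall. Mogs, the glucosidase that makes the first cut in the sugar of new glycoproteins, had 3.96 and 3.99 in untreated cells, 3.17 and 3.12 at 2 h, and 3.79 and 3.75 at 4 h. It fell 1.78-fold at 2 h (-0.83 ± 0.06, limma adjusted p = 0.00117; -0.78 on another probe), by 0.20 ± 0.06 at 4 h (adjusted p = 0.0466), and rose between those times by 0.62 ± 0.06 (adjusted p = 0.00422). Herpud1 and Mogs thus had the same order of group means, untreated above 4 h above 2 h.

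Among 28 genes of ER-associated degradation, 6 rose and 2 fell at 2 h (22.6% and 14.9% of all genes) and 8 rose and 4 fell at 4 h (23.9% and 17.9%), with medians of 0.19 and 0.08 (0.12 and 0.07 for all genes). With the slide as a block 12 rose at 2 h, where 31.8% of all genes did. After spike-in scaling 1 rose and 14 fell at 2 h (8.29% and 51.5% of all genes), and 1 rose and 11 fell at 4 h (10.2% and 37.0%). Syvn1 encodes HRD1, the ubiquitin ligase that HERPUD1 binds. It had 4.23 and 4.19 in untreated cells, 3.19 and 3.16 at 2 h, and 3.93 and 3.81 at 4 h, and the 3 groups did not overlap. It fell 2.04-fold at 2 h (-1.03 ± 0.07, limma adjusted p = 0.00102) and by 0.33 ± 0.07 at 4 h (adjusted p = 0.0193), and rose between the times by 0.70 ± 0.07 (adjusted p = 0.00468). Herpud2, the paralog of Herpud1, went the other way, from 0.99 and 0.94 to 1.72 and 1.70 and then 1.65 and 1.58. It rose by 0.75 ± 0.06 and 0.65 ± 0.06 (adjusted p = 0.00175 and 0.00258; 0.30 and 0.36 after spike-in scaling). Ngly1, which strips sugars from retrieved proteins, had -0.16 ± 0.13 at 2 h and fell at 4 h by 0.54 ± 0.13 (limma, adjusted p = 0.0272, with -0.90 on another probe). Dimmer probes of this list went both ways. A dimmer probe of Derl2 fell at 2 h and 4 h (-0.76 and -0.70, adjusted p = 0.00438 and 0.00527), where its brightest probe had 0.23 and 0.02. At 4 h a dimmer probe of Derl1 fell (-0.43, adjusted p = 0.00541), while others of Derl1 rose (0.49 and 0.47, adjusted p = 0.00487 and 0.00496).

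By its brightest probe no gene of ER translocation or of ER to Golgi transport fell in the fit without the block. Dimmer probes did fall, 1 of Sec63 at 2 h and 4 h (-0.37 and -0.60, limma adjusted p = 0.0229 and 0.00541), 1 of Lman1 at 2 h (-0.89, adjusted p = 0.0411) and 1 of Sec24b at 4 h (-0.49, adjusted p = 0.0252). Other dimmer probes rose, such as 1 of Ssr1 (1.43 at 2 h and 1.46 at 4 h, adjusted p = 0.00137 and 0.00145) and 1 of Srprb (0.85 and 0.77, adjusted p = 0.0119 and 0.0137). Of all genes 22.6% rose and 14.9% fell at 2 h and 23.9% and 17.9% at 4 h, and with the block 31.8% rose at 2 h and 30.0% at 4 h. Of 27 translocation and signal peptide genes, 13 rose at 2 h (21 with the block) and 11 at 4 h (17 with the block), with medians of 0.28 and 0.29 (0.12 and 0.07 for all genes), and at an unadjusted p under 0.05 limma had none lower at either time. Of 25 transport genes, 10 rose at 2 h (18 with the block) and 9 at 4 h (14 with the block), with medians of 0.23 and 0.20, and at an unadjusted p under 0.05 1 was lower at each time, as was 1 called lower with the block. After spike-in scaling none rose and 8 of the 27 and 9 of the 25 fell at 2 h, where 8.29% of all genes rose and 51.5% fell, and none rose and 2 and 3 fell at 4 h, where 10.2% rose and 37.0% fell. At 4 h Sec61g, a subunit of the translocation channel, rose by 0.45 ± 0.08, Srp9 of the signal recognition particle by 0.43 ± 0.06 and the KDEL receptor gene Kdelr2 by 0.54 ± 0.07 (limma, adjusted p = 0.0141, 0.00777 and 0.00491). At 2 h Serp1, which protects the channel under stress, rose by 0.39 ± 0.07, the cargo receptor gene Tmed2 by 0.36 ± 0.06 and the COPII GTPase gene Sar1a by 0.35 ± 0.07 (adjusted p = 0.0148, 0.0146 and 0.0216). At 2 h after spike-in scaling Sec61g, Srp9, Serp1, Tmed2 and Sar1a stood at -0.10, -0.11, -0.06, -0.10 and -0.10, and Kdelr2 at 0.05.

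Among 18 genes of the PERK and ATF4 arm, 11 rose and 2 fell at 2 h (22.6% and 14.9% of all genes) and 9 rose and 2 fell at 4 h (23.9% and 17.9%), with medians of 0.36 and 0.30 (0.12 and 0.07 for all genes). With the slide as a block 12 rose and 3 fell at 2 h (31.8% and 18.4% of all genes), and 11 rose and 2 fell at 4 h (30.0% and 22.1%). After spike-in scaling 3 rose and 6 fell at 2 h (8.29% and 51.5% of all genes), and 4 rose and 3 fell at 4 h (10.2% and 37.0%). Atf3 rose 6.10-fold at 2 h, from 0.45 and 0.41 to 3.04 and 3.04, and had come back to 0.89 and 0.80 at 4 h (limma, adjusted p = 0.000143 and 0.00861 against untreated). Sesn2, a stress-induced regulator of growth signalling, rose by 1.02 ± 0.06 and 1.00 ± 0.06 (adjusted p = 0.000917 and 0.00106). Chac1, which degrades glutathione and is a target of ATF4 and ATF3, fell 2.43-fold at 2 h, from 3.48 and 3.51 to 2.23 and 2.20, and stood at 2.73 and 2.64 at 4 h (adjusted p = 0.000561 and 0.00173), a rise of 0.47 ± 0.06 from 2 h (adjusted p = 0.00958). Of 4 further genes chosen after their values were seen, for their known place in this arm, Trib3 fell (-0.37 ± 0.07 and -0.58 ± 0.07, adjusted p = 0.0170 and 0.00447) and Ppp1r15a, the phosphatase subunit that reverses PERK, rose (0.76 ± 0.06 and 0.54 ± 0.06, adjusted p = 0.00134 and 0.00320). Atf4 had 0.08 ± 0.07 and 0.04 ± 0.07 and Ddit3, which encodes CHOP, -0.32 ± 0.10 and -0.08 ± 0.10, and neither passed on the 75th-percentile scale. After spike-in scaling Atf4 had -0.37 at 2 h and -0.26 at 4 h, and Ddit3 -0.77 and -0.38. Under that scaling Trib3 had -0.82 and -0.88, and Ppp1r15a 0.30 and 0.25.

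Of 8 transcripts known to be cut by IRE1, 7 had a probe. By the brightest probe none passed at 2 h in limma's test (22.6% of all genes rose and 14.9% fell). There 1 was higher at an unadjusted p under 0.05, and 3 rose with the slide as a block (31.8% of all genes). Dimmer probes of Pmp22, Sparc and Bloc1s1 did rise at 2 h (3.68, 0.33 and 0.28, limma adjusted p = 0.0392, 0.0322 and 0.0487). The brightest probe of Pmp22 had -0.10 at 2 h. From 2 h to 4 h the dimmer Pmp22 probe had -2.83 and did not pass (adjusted p = 0.0883). A dimmer probe of Galnt10 did not pass (0.27, adjusted p = 0.153). At 4 h Pmp22, a myelin protein also made by fibroblasts, fell by 0.43 ± 0.08 on its brightest probe (limma, adjusted p = 0.0148). The dimmer Pmp22 probe had 0.85 at 4 h and did not pass (adjusted p = 0.512). At 4 h 17.9% of all genes fell. With the block 2 rose and 3 fell at 4 h (30.0% and 22.1% of all genes), and after spike-in scaling 3 fell at each time (51.5% and 37.0%). The list's medians were 0.18 and 0.08, against 0.12 and 0.07 for all genes.

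**Figure D5:**
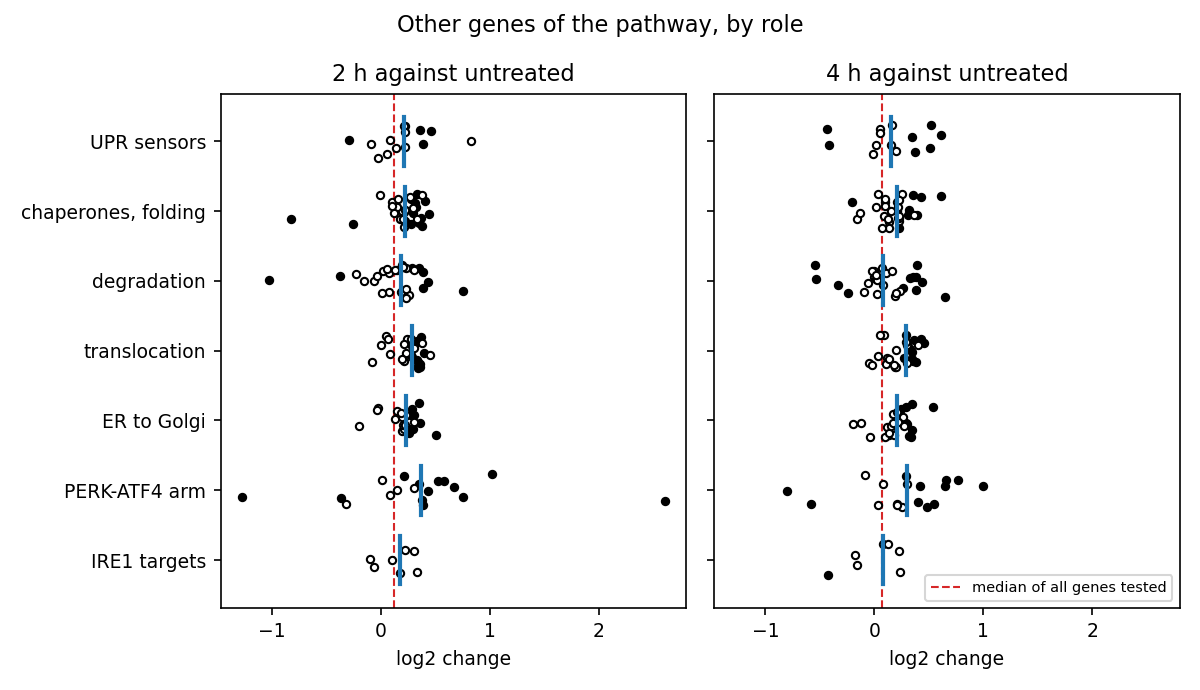
Log2 changes (x axis) at 2 h and 4 h against untreated cells for the genes of 7 pathway lists, 1 point per gene by its brightest probe, spread vertically at random within a list. Filled points passed limma's test, blue bars are list medians and the dashed line is the median of all genes. Most lists lie at or just right of the line. At 2 h Syvn1 (-1.03), Mogs (-0.83) and Chac1 (-1.28) lie far to the left, and Atf3 (2.61), Sesn2 (1.02) and Ern1 (0.83, not passed) far to the right.

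The array was then read by promoter letters instead of by role. Of 49 genes with either ER stress element in their window, 28 were tested, among them Herpud1, Calr and Creld2. At 2 h 10 rose, 2 fell and 16 did not pass (22.6% of all genes rose and 14.9% fell), and at 4 h 6 rose, 4 fell and 18 did not pass (23.9% and 17.9%), with medians of 0.18 and 0.09 (0.12 and 0.07 for all genes). After spike-in scaling 1 rose and 15 fell at 2 h (8.29% and 51.5% of all genes), and 1 rose and 10 fell at 4 h (10.2% and 37.0%). The 2 that fell at 2 h were Herpud1 and Syvn1, and both fell at 4 h too, together with Lgalsl (-0.40) and Spats2l (-0.40). Between 2 h and 4 h 3 of the 28 rose, which were Herpud1, Syvn1 and Lrif1 (0.48), and 4 fell (13.1% and 15.7% of all genes). Of the genes with an element that are on the list of chaperones and folding enzymes, Hspa5, Hsp90b1, Canx, Pdia6 and Dnajb11 rose at 2 h (0.37, 0.29, 0.27, 0.22 and 0.22), while Dnajc3 had 0.17 and Ero1b -0.01 and did not pass (limma, adjusted p = 0.215 and 0.939). Syvn1 and Calr, whose windows hold the first form, had changes of -1.03 and 0.41 at 2 h (-1.48 and -0.04 after spike-in scaling).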

How the data were processed

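Levels were measured on 6 one-colour Agilent arrays (Cy3, design 014868) of total RNA. Per the file headers, the authors extracted the spots with Feature Extraction 9.5.3.1, and the deposited scanner files and value table hold fluorescence intensity on a linear scale; the table equals the background-corrected processed signal within 5e-04. Log2 signals were set relative to the 75th percentile of the 43379 non-control spots (of 45018) on the same array. Outlier spots (99 to 149 per array) were left out and replicate spots of a probe averaged. A probe entered the fit if the 2 arrays of some group both showed it well above background, which left 25885 probes for limma 3.58.1 in R 4.3.3 (residual degrees of freedom 3, prior 1.69). Calls needed a Benjamini-Hochberg adjusted p under 0.05. The 75th-percentile signal was 826 and 883 (untreated), 675 and 677 (2 h), and 674 and 754 (4 h), 57.3% to 68.0% of spots were well above background, none was saturated, and replicates correlated at 0.992 to 0.993. The number of arrays limits the precision.

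All 14 probes of the 9 genes are given. From each pathway list, up to 3 genes past the test at 2 h or 4 h with the largest change were named. The genes and lists were chosen with earlier results of these data known. The slide barcodes in the headers put same-numbered arrays on 1 slide, and their deviations from group means correlated at 0.21 (untreated and 2 h), 0.19 (untreated and 4 h) and 0.21 (2 h and 4 h), so the numbers pair the arrays. Alternatives were scalings, background correction (normexp, offset 50), filters, summaries of a gene, the slide as a block, array weights, moderation, fewer groups and leaving out each array. Promoter letters were searched with Python 3.11.15. Probe coordinates have no stated build, so none is printed and only distances between probes of a gene are used.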

Additional observations from a re-analysis of the deposited data

Results flagged for a closer look

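Herpud1 and Sdf2l1 are listed here because their changes at 2 h and at 4 h differed in a direct test of 4 h against 2 h. Herpud1 was 0.40 higher at 4 h than at 2 h (limma, adjusted p = 0.0371; 0.0103 to 0.236 over the 21 alternatives, past the threshold in 11), and was higher on both slides (0.41 and 0.40). Sdf2l1 was lower at 4 h than at 2 h, with a change of -0.37 (limma, adjusted p = 0.0424; 0.0161 to 0.172 over the alternatives, past the threshold in 10), and was lower on both slides (-0.28 and -0.46). Since the groups hold 2 arrays each, no group could be searched for outlying arrays.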

How the results depend on the processing

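The results were recomputed under 21 alternatives. Of 795 recomputed changes of the 13 probes, 613 kept their direction and side of the threshold, 91 lost and 25 gained a call, and 66 changed sign; the cause was not tested where a scaling did so. The counts of 2 rises and 1 fall at 2 h, 1 rise and 2 falls at 4 h, and 1 rise and 1 fall between the times moved as follows, each count being of the 9 genes in limma's test. The precision is limited by 2 arrays per group.

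With the replicate block (the slide), 5 rose at 2 h, 3 rose at 4 h and 2 fell between the times; falls against untreated and the rise of Herpud1 between the times stayed called, and no other call of the 9 genes changed than those printed beside their values. With trend and robust moderation 4 rose at 2 h, 2 at 4 h, and 2 fell between the times. Array weights left 0 rises at 4 h, the filter for all 6 arrays gave 2 rises at 4 h, and the mean of a gene's probes gave 1 rise at 2 h and 2 at 4 h, where Edem1 stood at 0.13 and 0.10 and Pmp22 at 1.79 and 0.21. Without a filter on dim probes 0 rose at 2 h, 0 rose and 0 fell at 4 h, and 0 rose and 0 fell between. With only the groups compared 0 rose and 1 fell at 4 h, and 0 rose and 0 fell between. Leaving out 1 array in turn gave 0 to 2 rises at 2 h, 0 rises (in every case) and 0 to 1 falls at 4 h, and 0 rises and 0 to 1 falls between. The 2 h rises were lost without any untreated or 2 h array. In those fits a group's lone array is assumed to vary like the other groups. Changes near 0 then crossed it, with ranges of -0.0588 to 0.21 (4 h) and -0.27 to 0.00270 (4 h against 2 h) for Edem1's dim probe, -0.0250 to 0.0390 for Sdf2l1 (2 h), -0.0124 to 0.0481 for Pdia4 and -0.17 to 0.00268 for Hyou1 (4 h against 2 h), and -0.0866 to 0.00102 for Creld2 (4 h).

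After spike-in scaling 0 rose and 6 fell at 2 h, 0 rose and 5 fell at 4 h, and 2 rose and 0 fell between. Signs turned at 2 h for Atf6 (-0.11; other probe -0.0398), Edem1's other probes (-0.21, dim -0.24), Sdf2l1 (-0.45), Pdia4 (-0.27), Calr (-0.0441, -0.0730), Creld2 (-0.27), Hyou1 (-0.25), Dnajb9 (-0.0127), Ppib (-0.0515), Tmed2 (-0.0977), Sar1a (-0.10), Sec61g (-0.0969), Srp9 (-0.11), Serp1 (-0.0611) and Eif2ak3 (-0.40). At 4 h they turned for Xbp1 (-0.25), Atf6 (-0.12), Edem1's dim probe (-0.21), Pdia4 (-0.0854), Calr's other probe (-0.24) and Hyou1 (-0.17), and between the times for Edem1 (0.11, dim 0.0281), Calr (0.0462) and Hyou1 (0.0781).

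With no scaling 0 rose and 4 fell at 2 h, 0 rose and 4 fell at 4 h, and 0 rose between. Signs turned at 2 h for Edem1's other probes (-0.0888, dim -0.13), Sdf2l1 (-0.33), Pdia4 (-0.15), Creld2 (-0.15), Hyou1 (-0.13) and Eif2ak3 (-0.28), at 4 h for Xbp1 (-0.21), Atf6 (-0.0860), Edem1's dim probe (-0.18), Pdia4 (-0.0528), Calr's other probe (-0.21) and Hyou1 (-0.14), and between for Edem1 (0.0302). With median centring 0 rose at 2 h, 0 rose at 4 h and 0 fell between. Signs turned at 2 h for Sdf2l1 (-0.19), Pdia4 (-0.00876), Creld2 (-0.0122) and Eif2ak3 (-0.14), and at 4 h for Xbp1 (-0.11), Edem1's dim probe (-0.0786), Calr's other probe (-0.10) and Hyou1 (-0.0377). The share of rises among all called genes was 32.5% at 2 h with median centring and 44.5% with quantile normalization.

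With quantile normalization 1 rose at 2 h, 0 rose at 4 h and 0 fell between. Creld2 joined the falls at 4 h with this scaling and with normexp with quantile (-0.22 and -0.21, limma adjusted p = 0.0402 and 0.0232). Signs turned for Sdf2l1 (-0.0124) and Creld2 (-0.0402) at 2 h, Edem1's dim probe (-0.0200) and Calr's other probe (-0.00129) at 4 h, and Edem1 (0.000691) between. Normexp with quantile gave 1 rise at 2 h, with Sdf2l1 at -0.00958, Creld2 at -0.0561, Edem1's dim probe at -0.0365 and Calr's other probe at -0.0185 (4 h), and Edem1 at 0.00517 (between). Normexp with the 75th percentile gave 0 rises at 2 h, 0 rises and 1 fall at 4 h, and 0 rises and 0 falls between. Signs turned at 4 h for Xbp1 (-0.0283), Calr's other probe (-0.0615) and Hyou1 (-0.00302), and between for Edem1's other probes (-0.0121, dim 0.14) and Pdia4 (-0.0461). At an adjusted p under 0.05 normexp with the 75th percentile called 4.05% of genes higher and 3.53% lower at 2 h, and no filter 7.83% and 5.77%.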

Other observations

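The mean log2 level of the 9 transcripts was nearly flat, at 2.55 and 2.53 in untreated cells, 2.59 and 2.58 at 2 h, and 2.55 and 2.51 at 4 h. Of 16701 named probes above background on all 6 arrays, those whose profile was most like this mean were Ubxd8 (r = 0.997), Frag1, Ubtf, Fbxo6b and Ephx2 (0.994). Ubxd8, an older name of Faf2, encodes a factor of ER-associated degradation and had changes of 0.07 at 2 h and -0.02 at 4 h on this probe. Other probes of the gene had 0.22 and 0.16, and -0.09 and -0.04, at these times. The probes most like Xbp1 were Cdkn2a (r = 0.994), Rpl27a, Daxx, Rgmb and Atp6v0a1 (0.987). These correlations are taken over 6 arrays that share slides and groups, were the highest of many, and are descriptions without a test.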
